A study of Homo sapiens with 9 samples.

Results

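Immunoglobulin variable and light chain genes comprised 279 of the 59050 gene symbols in the count table. They were chosen by name. The members were the heavy chain (IGHV), kappa (IGKV) and lambda (IGLV) variable genes whose symbol has a digit after the V. Every lambda constant gene (IGLC), the kappa constant gene IGKC and IGLL5 were added. RNA of MEC1, an established cell line of chronic lymphocytic leukemia (CLL), was sequenced in 9 samples. The cells were cultured in 2D (3 samples), or bioprinted in a 3D hydrogel scaffold and harvested at day 7 (3D_7d, 3 samples) or day 14 (3D_14d, 3 samples). No further treatment is given for any group, the labels give no culture time for 2D, and the 3 groups are samples of 1 cell line, so that they represent 1 leukemic clone. For the scaffolds, TRIzol extraction was followed by DNase digestion and a second extraction with a column kit. For 2D cultures the column kit, whose washes included a DNase solution, was used by itself. The extraction therefore cannot be told apart from 3D culture, but was the same at both time points.

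Each antibody is built of heavy and light chains. In a developing B cell, V, D and J segments of the heavy chain locus and V and J segments of a kappa or lambda locus are joined on the chromosome, and the joined exon is spliced to a constant region. All cells of a leukemic clone share the same joined segments, which are used to follow and classify CLL. V segments that were not joined, and joined but unused alleles, can also be transcribed from their own promoters. The values used here are reads counted per annotated gene, so a read of a rearranged transcript and a read of an unjoined segment have the same value.

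The libraries held 54662799 to 85968686 counted reads each. Levels are given as CPM, the count of a gene relative to the size of its library, scaled with the TMM method. All 7 B cell markers examined were above 1 CPM in every group, and their summed level was 3228 to 3262 CPM in 2D, 3732 to 4326 at day 7 and 4396 to 5062 at day 14. None of 6 myeloid markers reached 1 CPM, with summed levels of at most 0.966 CPM. The 6 plasma cell markers summed to 1474 to 1595 CPM in 2D, 2628 to 2762 at day 7 and 3107 to 4267 at day 14. JCHAIN held 506, 1897 and 2642 CPM of these sums (group means), and of the 6 markers 2 rose and 2 fell at each time point against 2D. Of the T cell markers, 3 of 8 were above 1 CPM in each group, and the 8 summed to 432 to 510, 669 to 713 and 738 to 1056 CPM. The 3 were TRAC (332, 472 and 649 CPM, group means), TRBC2 (121, 191 and 230) and TRBC1 (16.3, 27.0 and 31.1). CD3D, CD3E, CD3G, CD2 and CD247 were each under 1 CPM in every group mean. NK cell markers summed to 748 to 808, 798 to 836 and 914 to 1270 CPM, nearly all of it from PRF1. This gene held 784, 819 and 1077 CPM of these sums (group means), whereas KLRD1, the next highest at day 14, was at 4.69 CPM there. The 4 stromal markers summed to 10.2 to 11.4, 2.28 to 5.19 and 2.62 to 7.81 CPM. The part of these markers in the immunoglobulin levels was not tested. Replicates at day 14 differed more from each other than those of the other groups. The chi-square statistic of a pair of libraries, averaged over the tested genes, was 155 to 305 at day 14, against 22.5 to 81.9 in the other groups. It grows with counts, so that genes with many reads weigh heavily in it.

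MEC1 transcribed few of the immunoglobulin variable genes. Of the 279 genes, 77 had no count in any sample and 202 had at least 1. A CPM above 1 in at least 3 samples, the condition for a test, was met by 14: IGKC, IGKV4-1, IGHV4-59, IGHV1-24, IGHV1-69, IGHV4-34, IGHV1-69D, IGLV6-57, IGHV1-68, IGHV5-78, IGHV1-69-2, IGLL5, IGHV4-61 and IGHV3-23. A gene that met this condition only through the group in which it was high had to differ between groups, and IGLL5, IGHV4-61 and IGHV3-23 were of this kind. Their calls are therefore a description of these genes and not of all 279. Of the 188 genes with a count that did not meet the condition, 136 had at most 3 counts in every sample, and no such gene passed 284 counts in any sample. The 52 orphon V genes, copies of V segments placed outside the immunoglobulin loci, held 113 counts over 9 libraries.

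Most of the reads assigned to V genes of each chain fell on 1 leading segment. IGKV4-1 held 99.992% of the kappa V counts in 2D, 99.996% at day 7 and 99.997% at day 14 (means, n = 3 each). The kappa V gene with the next most counts, IGKV3-15, had 55 counts over all libraries against a kappa V total of 4792786. IGKV3-15 had 0 counts in all 3 2D libraries. IGHV4-59 held 88.5% ± 0.554 (SD, n = 3) of heavy chain V counts in 2D, 91.1% ± 0.251 at day 7 and 85.7% ± 3.46 at day 14. Few reads came from the lambda locus. Its 56 V genes among the members together had 6134 counts over all samples, led by IGLV6-57. IGKC held 99.994% ± 0.00188 of light chain constant counts in 2D, 99.986% ± 0.00913 at day 7 and 99.957% ± 0.0124 at day 14. Kappa's share was lower in every day 14 sample than in every 2D or day 7 sample, at the smallest p-value that 3 samples against 3 allow (exact two-sided permutation test, p = 0.1, adjusted p = 0.21 over 21 tests).

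The leading kappa segment is shown because nearly all light chain V reads were assigned to it. IGKV4-1 lies on chromosome 2 of GRCh38 at chr2:88885397-88886153 on the plus strand, and its coding part consists of a leader exon and a V exon. The first 300 of the 314 bases of the reference V exon, at chr2:88885840-88886139, are given 5′ to 3′ without capitals, since no other member gene held any of its 100-base stretches.
IGKV4-1: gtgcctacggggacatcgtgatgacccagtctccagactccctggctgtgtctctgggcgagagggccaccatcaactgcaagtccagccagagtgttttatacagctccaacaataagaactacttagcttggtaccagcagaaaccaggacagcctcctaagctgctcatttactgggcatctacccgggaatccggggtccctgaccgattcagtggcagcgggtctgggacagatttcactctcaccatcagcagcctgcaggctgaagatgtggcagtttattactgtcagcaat

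The leading heavy chain segment, IGHV4-59, lies on the minus strand at chr14:106627249-106627825. It is shown with IGHV4-34, a segment of the same subgroup that is often used in CLL and that stood apart in 1 library described further on. The first 150 bases of both V exons are given 5′ to 3′ from GRCh38, at chr14:106627403-106627552 and chr14:106373815-106373964, with the bases that differ between both genes in capitals.
IGHV4-59: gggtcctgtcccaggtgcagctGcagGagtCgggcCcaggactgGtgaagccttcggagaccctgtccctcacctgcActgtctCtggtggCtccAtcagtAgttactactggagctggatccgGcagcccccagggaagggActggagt
IGHV4-34: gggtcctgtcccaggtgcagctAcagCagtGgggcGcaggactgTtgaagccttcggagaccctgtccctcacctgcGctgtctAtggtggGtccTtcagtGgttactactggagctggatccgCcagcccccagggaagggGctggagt
The full V exons of IGHV4-59 and IGHV4-34 were 92.4% identical, and none of the 100-base stretches of IGHV4-34 occurred in another member gene. IGHV4-61, by contrast, was 97.7% identical to IGHV4-59 in its V exon. Of the 100-base stretches of spliced IGHV4-59, 33.8% occurred unchanged in IGHV4-61, and 38.3% of those of IGHV4-61 occurred in another member gene. Reads of 100 nt from these stretches cannot be assigned to 1 of the 2 genes, so the level of IGHV4-61 is uncertain. The level of IGHV4-59 also depends on how such reads were treated, which is not given. These are reference sequences, and the reads of MEC1 can carry somatic mutations that were not examined.

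The kappa light chain rose several fold in 3D culture. IGKC, which encodes the constant part of every kappa light chain, was at 2427, 2217 and 1960 CPM in the 2D samples, at 11992, 14590 and 15213 CPM at day 7 and at 27207, 15947 and 16175 CPM at day 14. Every 3D sample was above every 2D sample, and 3D_14d replicate 1 was far above all other samples. The log2 fold change of IGKC was 2.66 at day 7 (SE 0.215, adjusted p = 5.55e-06, edgeR quasi-likelihood test) and 3.17 at day 14 (SE 0.219, adjusted p = 3.37e-06), both against 2D. Between day 14 and day 7 it was 0.51 (SE 0.202, adjusted p = 0.0787), above the threshold of 0.05. Without 3D_14d replicate 2 or replicate 3 the same comparison gave 0.64 in both cases, with adjusted p = 0.0351 and adjusted p = 0.0423, and without replicate 1, the highest sample, it gave 0.22 (adjusted p = 0.266). Over all alternatives the adjusted p ranged from 0.0351 to 0.325. In RNA from a whole culture, more cells that transcribe a gene and more RNA of it per cell cannot be told apart. No source used here says whether the 3 samples of a group were separate cultures, so p-values measure the spread between these samples, which may be technical.

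IGKV4-1, which supplies the variable part of the light chain, moved in parallel. Its level was 1946, 1763 and 1581 CPM in 2D, 9598, 11717 and 12364 CPM at day 7 and 20893, 13023 and 12941 CPM at day 14. The order of the samples was close to that of IGKC, with 3D_14d replicate 1 highest. The log2 fold change was 2.67 at day 7 (SE 0.205, adjusted p = 4.05e-06) and 3.15 at day 14 (SE 0.209, adjusted p = 3.07e-06), and 0.48 between the time points (SE 0.193, adjusted p = 0.0813). Without 3D_14d replicate 1 the last value was 0.23 (adjusted p = 0.258), and without replicate 2 or 3 it was 0.60 (adjusted p = 0.0411 and 0.0423), within a range over alternatives of 0.0411 to 0.375. Ranked by p-value among the 13463 genes tested, IGKV4-1 was 31st at day 7 and 7th at day 14. The log2 ratio of IGKV4-1 to IGKC counts within a library, which does not depend on scaling between libraries, was -0.32 ± 0.0101 (SD, n = 3) in 2D, -0.31 ± 0.0116 at day 7 and -0.33 ± 0.0452 at day 14. Group means of this ratio differed by less than the spread between replicates at day 14 (exact permutation test, p = 0.5, p = 0.8 and p = 0.7 for day 7 against 2D, day 14 against 2D and day 14 against day 7).

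IGHV4-59 also rose in 3D. It was measured at 371, 355 and 338 CPM in 2D, 950, 1086 and 1122 CPM at day 7 and 1327, 1324 and 1511 CPM at day 14. The 3 groups did not overlap. The fold change against 2D was 2.96 at day 7 (log2 1.57, SE 0.134, adjusted p = 6.99e-06) and 3.91 at day 14 (log2 1.97, SE 0.136, adjusted p = 3.37e-06), where IGKC had 6.32 and 8.98. The difference between the 2 genes was not tested as such. The rise from day 7 to day 14 was 0.40 on the log2 scale (SE 0.131, adjusted p = 0.0388). This call was lost in 12 alternative fits, among them those without any one of the 2D or day 7 samples or without 3D_14d replicate 3, and the adjusted p ranged from 0.0126 to 0.469.

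**Figure D1:**
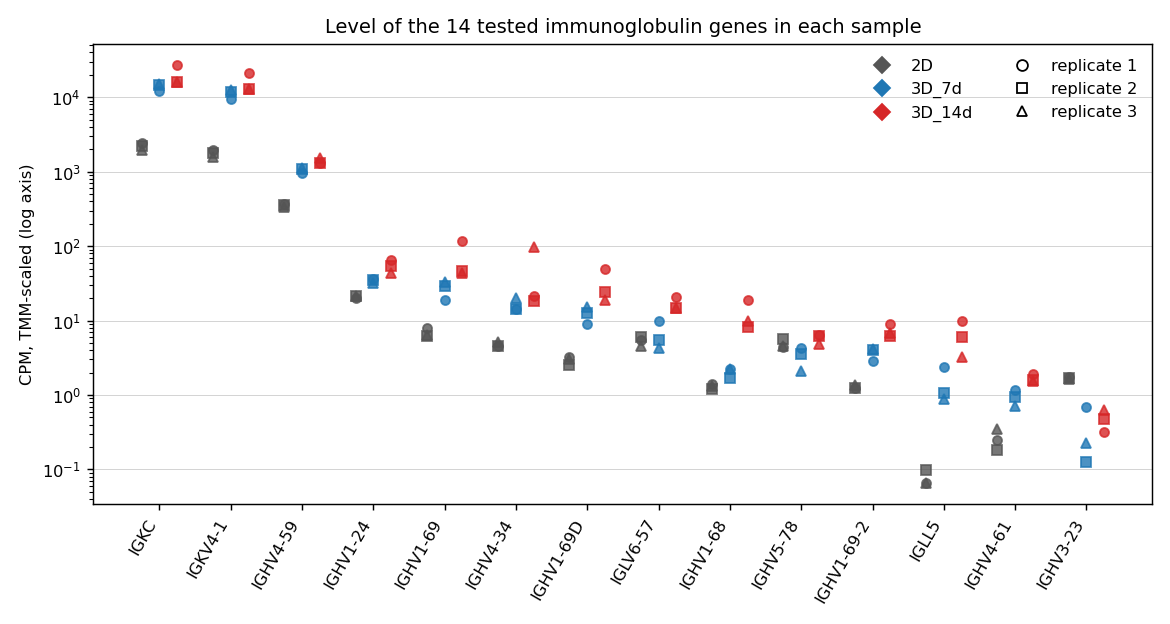
Level of the 14 tested genes in each of the 9 samples, in TMM-scaled CPM on a log axis, with the group shown by colour and the replicate by symbol. IGKC, IGKV4-1 and IGHV4-59 stand above all other genes in every sample, and IGHV3-23 at the right is the gene whose 2D samples (1.63 to 1.76 CPM) are all above its 3D samples.

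The proportion of kappa to heavy chain constant transcripts was higher in each 3D sample than in each 2D sample. IGHM, which encodes the constant region of the mu heavy chain and had the most counts of the heavy chain constant genes, was at 7194, 7211 and 6855 CPM in 2D, 21739, 23831 and 25229 CPM at day 7, and 30304, 31069 and 17450 CPM at day 14. Per kilobase of exon, IGKC and IGHM were at a similar level in 2D, with 4209 and 4203 CPM per kb. At day 7 the corresponding values were 26638 and 13997 CPM per kb. The log2 ratio of IGKC to all heavy chain constant genes was -1.63, -1.76 and -1.86 in 2D, and -0.89, -0.73 and -0.75 at day 7. At day 14 it was -0.18, -0.99 and -0.15. All 3D samples were above all 2D samples, with a mean difference from 2D of 0.96 at day 7 and 1.31 at day 14 (exact permutation test, p = 0.1 and adjusted p = 0.21 for both, the smallest that this design allows). Day 14 and day 7 overlapped (exact permutation test, p = 0.4).

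The log2 ratio of IGHV4-59 to the summed heavy chain constant genes was -4.34, -4.41 and -4.40 in 2D, -4.55, -4.48 and -4.51 at day 7, and -4.54, -4.58 and -3.57 at day 14. The day 7 samples were all slightly below the 2D samples, with a mean difference of -0.13 (exact permutation test, p = 0.1, adjusted p = 0.21), and 3D_14d replicate 3 lay far above the other 8 samples. In that library IGHV4-59 was at 1511 CPM, the highest of any sample, while IGHM was at 17450 CPM, the lowest of the 3D samples. Without it the day 14 mean was 0.18 below 2D on the log2 scale, where it was 0.15 above with it. Per kilobase of exon, IGHV4-59 stood at 0.158 to 0.166 of the heavy chain constant genes in 2D, whereas IGKV4-1 stood at 0.773 to 0.784 of IGKC. The share of IGHV4-59 among heavy chain V counts therefore covers only reads that were assigned to a V gene. Of the 100-base stretches of IGHV4-59, 33.8% had a copy in another member gene, whereas none of those of IGKV4-1 had one. The reason for the lower heavy chain ratio was not tested.

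**Figure D2:**
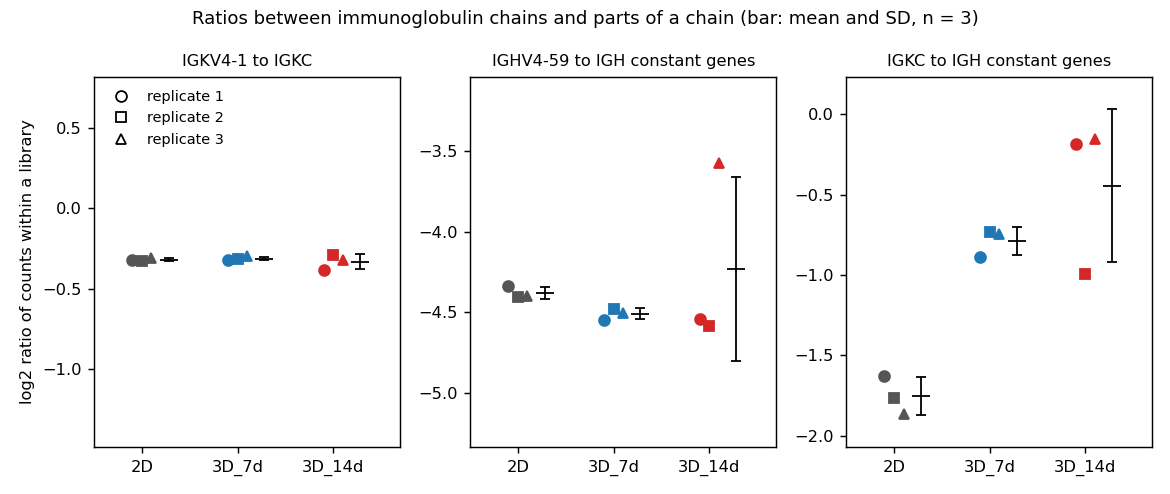
Log2 ratio of counts within each library for IGKV4-1 to IGKC (left), IGHV4-59 to the summed heavy chain constant genes (middle) and IGKC to the summed heavy chain constant genes (right), by group, with symbols for replicates and bars for mean and SD (n = 3); each axis spans the same range. The left ratio stays near -0.32 in all samples, the middle ratio departs in 3D_14d replicate 3 (-3.57), and the right ratio is above its 2D values in every 3D sample.

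Most tested genes moved upwards. Against 2D, 10 of the 14 rose and 1 fell at day 7, where 22.2% of all tested genes rose and 21.2% fell. At day 14, 12 rose and 1 fell, where 19.0% of all genes rose and 17.2% fell. From day 7 to day 14, 9 rose and 0 fell, where 14.5% of all genes rose and 13.6% fell. None of the 14 had a log2 fold change below 0 in the last comparison, and the Wald test of DESeq2 gave the same count of 0. The median log2 fold change of the 14 was 1.67, 2.92 and 0.91 for these comparisons, against -0.0039, 0.023 and -0.0012 for all genes. The comparisons share samples, and the 14 genes include those that met the expression condition only through their high group. With scaling by total counts alone the median of all genes was -0.16 at day 7 and -0.18 at day 14 against 2D, which left the direction of each called gene as it was.

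**Figure D3:**
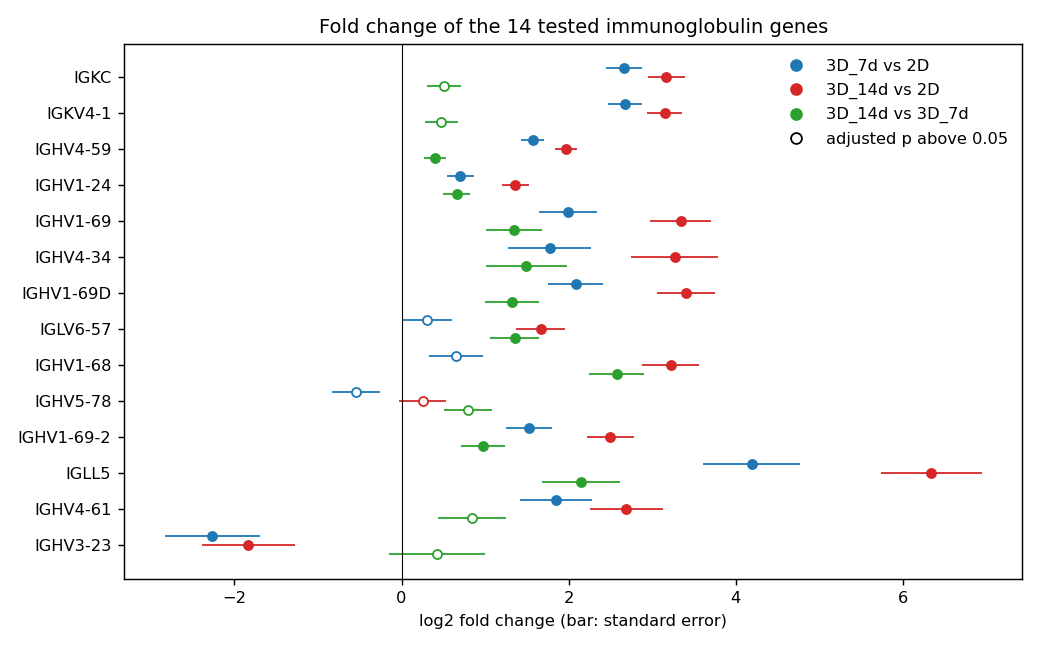
Log2 fold change (points) and standard error (bars) of the 14 tested genes in 3 comparisons, with open points where the adjusted p was above 0.05. IGLL5 has the highest fold changes against 2D (4.19 and 6.34), IGHV3-23 is below 0 against 2D, and IGHV5-78 is open in all 3 comparisons.

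Among the heavy chain V segments other than IGHV4-59, IGHV1-24 had the most counts and was at 19.9, 21.5 and 21.7 CPM in 2D, 36.0, 34.7 and 31.9 CPM at day 7 and 64.3, 54.1 and 43.8 CPM at day 14. Its groups did not overlap. IGHV1-24 rose by 0.70 at day 7 (SE 0.163, adjusted p = 0.00411) and by 1.36 at day 14 (SE 0.165, adjusted p = 8.42e-05) on the log2 scale.

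IGHV1-69, a segment that many unmutated CLL clones use, and its near copy IGHV1-69D rose together. IGHV1-69 was at 7.93, 6.22 and 6.38 CPM in 2D, 19.2, 29.5 and 33.2 CPM at day 7 and 118, 46.6 and 43.7 CPM at day 14. IGHV1-69D was at 3.22, 2.52 and 3.01 CPM in 2D, 9.03, 12.6 and 15.4 CPM at day 7 and 49.4, 24.3 and 18.7 CPM at day 14. Both were highest in 3D_14d replicate 1, the library that was also highest for IGKC. The log2 fold change against 2D was 2.00 (SE 0.348, adjusted p = 0.000677) at day 7 and 3.34 (SE 0.365, adjusted p = 4.28e-05) at day 14 for IGHV1-69, and 2.08 and 3.40 for IGHV1-69D. Without 3D_14d replicate 1, the day 14 value of IGHV1-69 was 2.73, and the rise from day 7 to day 14 was 0.74 for IGHV1-69 and 0.82 for IGHV1-69D, in place of 1.35 and 1.32. The first 100 bases of their V exons, at chr14:106714889-106714988 and chr14:106762299-106762398 on the minus strand, are printed to show a part in which the 2 genes cannot be separated. No base is in capitals because none differs.
IGHV1-69: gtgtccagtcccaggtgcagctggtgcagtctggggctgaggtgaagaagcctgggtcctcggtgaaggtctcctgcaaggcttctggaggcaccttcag
IGHV1-69D: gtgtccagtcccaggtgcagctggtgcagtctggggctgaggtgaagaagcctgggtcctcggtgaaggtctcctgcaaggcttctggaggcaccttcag
Of the 100-base stretches of IGHV1-69, 66.1% occurred unchanged in IGHV1-69D. The sum of both genes gave log2 fold changes with the calls of the single genes.

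Further segments in the same part of the locus were low. IGHV1-69-2 was at 1.25, 1.24 and 1.36 CPM in 2D, 2.88, 4.05 and 4.19 CPM at day 7 and 8.90, 6.19 and 6.70 CPM at day 14, and rose at both time points (2.88-fold, adjusted p = 0.000765, and 5.65-fold, adjusted p = 4.77e-05). IGHV1-68, a pseudogene, was at 1.41, 1.22 and 1.34 CPM in 2D and 2.26, 1.69 and 2.26 CPM at day 7, but at 19.0, 8.18 and 9.82 CPM at day 14. Its groups did not overlap, yet the difference at day 7 missed the threshold (log2 0.65, SE 0.321, adjusted p = 0.121). IGHV1-68 rose by 2.57 from day 7 to day 14 (SE 0.328, adjusted p = 0.000301), the highest log2 fold change of the 14 genes in that comparison. IGHV5-78, another pseudogene, was at 4.36, 5.64 and 4.56 CPM in 2D, 4.30, 3.57 and 2.12 CPM at day 7 and 6.32, 6.19 and 4.84 CPM at day 14. No comparison of IGHV5-78 passed the threshold (adjusted p = 0.144, 0.520 and 0.0565), and the last passed it under 4 alternatives with adjusted p down to 0.0224.

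IGHV4-61, the close relative of IGHV4-59, was at 0.247, 0.183 and 0.354 CPM in 2D, 1.17, 0.929 and 0.721 CPM at day 7 and 1.94, 1.58 and 1.56 CPM at day 14. The groups did not overlap, and the log2 fold change was 1.85 at day 7 (SE 0.432, adjusted p = 0.00427) and 2.69 at day 14 (SE 0.437, adjusted p = 0.000579). The part of reads that align to both genes in these values was not tested.

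IGHV3-23, a commonly used segment of the antibody repertoire, went the other way. It was at 1.76, 1.68 and 1.63 CPM in 2D, 0.690, 0.128 and 0.228 CPM at day 7 and 0.314, 0.475 and 0.627 CPM at day 14. All 2D samples were above all 3D samples, and the spread among 3D samples was wide at this low level. IGHV3-23 fell by 2.26 at day 7 (SE 0.568, adjusted p = 0.00654) and fell by 1.83 at day 14 (SE 0.556, adjusted p = 0.0214) on the log2 scale. Without 3D_7d replicate 1 the day 7 value was -3.26. The gene met the expression condition only through the 3 2D samples and was not tested when any of them was left out, so that the count of falling genes was then 0.

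**Figure D4:**
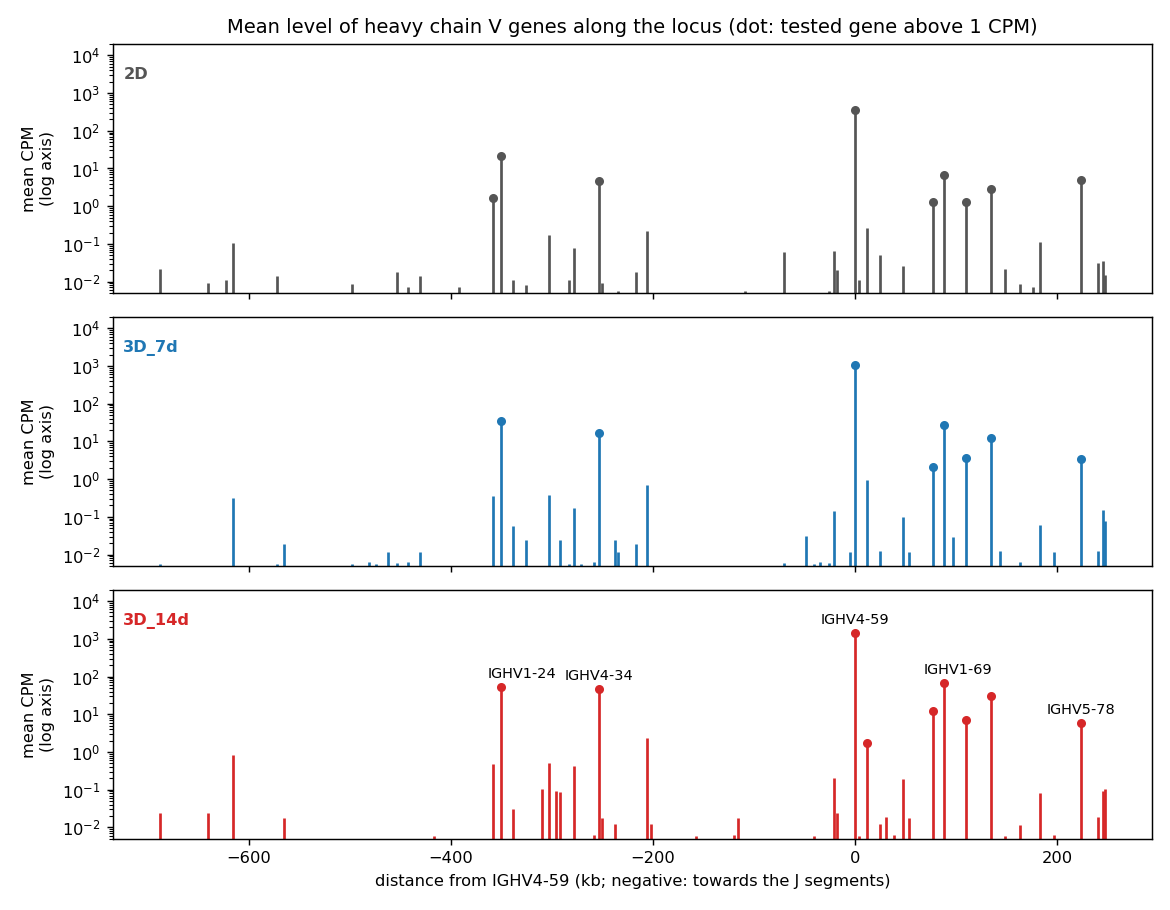
Mean CPM (log axis, n = 3) of the heavy chain V genes among the members in each group, against their distance from IGHV4-59 in kb. Negative distances are towards the J segments, and dots mark tested genes above 1 CPM. Genes without a count in a group are not drawn. IGHV4-59 is the highest line in each panel, and IGHV1-69 and its neighbours stand between 76.6 and 134.8 kb on the far side from the J segments.

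The position of the segments along the locus gives a second view. A V to D to J rearrangement removes the DNA between the joined V segment and the J segments from that chromosome, while segments on the far side of the V segment are kept. Of the heavy chain V genes among the members, 25 lie on the far side of IGHV4-59 and 60 between IGHV4-59 and the J segments. The 25 far genes together had 33091 counts, of which IGHV1-69, at 87.4 kb, and its copy at 134.8 kb are part. The 60 near genes had 32490 counts, and these included IGHV1-24 and IGHV4-34, at -350.7 and -253.6 kb on the axis of the locus plot. Without TMM scaling, the summed level of the far genes was 18.7 to 19.8 CPM in 2D, 39.1 to 56.2 at day 7 and 87.0 to 180 at day 14. The near genes summed to 28.9 to 32.5, 48.9 to 52.8 and 70.7 to 153 CPM. Neither sum overlapped between 2D and 3D. Counts per gene do not tell which of the 2 chromosomes a read came from.

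One library departed from the others for a few heavy chain segments. IGHV4-34 was at 4.52, 4.56 and 5.14 CPM in 2D, 14.2, 14.2 and 20.3 CPM at day 7 and 21.3, 18.5 and 97.1 CPM at day 14. All 3D samples were above 2D, and the value of 3D_14d replicate 3 was more than 4 times that of any other. The log2 fold change was 1.77 at day 7 (SE 0.499, adjusted p = 0.0122) and 3.27 at day 14 (SE 0.524, adjusted p = 0.000537). Without 3D_14d replicate 3, the latter was 2.07 and still passed, while the rise from day 7 to day 14 was 0.30 (adjusted p = 0.294) in place of 1.49 (SE 0.488, adjusted p = 0.0375). Its adjusted p in that comparison was above 0.05 in 7 alternative fits.

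The same library was highest for 3 other segments, which were chosen after their values were seen. IGHV4-39 had 284 counts there (5.09 CPM), against 46 and 52 in the other day 14 samples, and IGHV4-4 had 101 counts (1.81 CPM), against 24 and 16. The joining segment IGHJ4 had 2061 of its 3694 counts there, against 69 to 324 in the other 8 samples. The V exons of IGHV4-39 and IGHV4-4 were 93.2% and 93.5% identical to that of IGHV4-59. None of the 100-base stretches of IGHV4-39 occurred in another member gene.

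**Figure D5:**
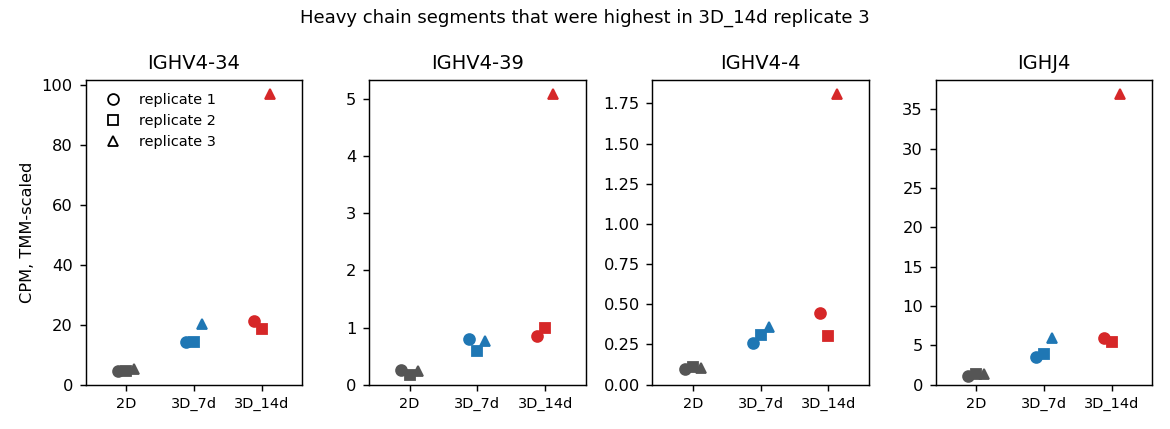
TMM-scaled CPM of IGHV4-34, IGHV4-39, IGHV4-4 and IGHJ4 in each sample, by group and with a symbol per replicate; the axes start at 0 and differ in range. In all 4 panels 3D_14d replicate 3 is the highest sample, at 97.1, 5.09, 1.81 and 36.9 CPM.

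The lambda locus was transcribed at a low level. Its V genes together took 0.000792% of the assigned reads in 2D, 0.000780% at day 7 and 0.00179% at day 14 (means, n = 3 each). The constant genes of the locus, with IGLL5, took 1.36e-05%, 0.000183% and 0.000819%. IGLV6-57, its leading V gene, was at 5.41, 5.95 and 4.51 CPM in 2D, 9.92, 5.43 and 4.31 CPM at day 7 and 21.0, 14.6 and 14.7 CPM at day 14. Day 7 overlapped 2D, and day 14 was above both. The log2 fold change of IGLV6-57 was 0.31 at day 7 (SE 0.293, adjusted p = 0.418), 1.66 at day 14 (SE 0.298, adjusted p = 0.00108) and 1.35 between the time points (SE 0.296, adjusted p = 0.00573). IGLL5, whose exons are spliced to those of the first lambda constant gene, had 4, 9 and 5 counts in 2D. It was at 0.0658, 0.0968 and 0.0655 CPM in 2D, 2.38, 1.06 and 0.891 CPM at day 7 and 9.96, 6.02 and 3.26 CPM at day 14. The groups did not overlap, and the log2 fold change was 4.19 at day 7 (SE 0.579, adjusted p = 0.000144) and 6.34 at day 14 (SE 0.604, adjusted p = 1.81e-05), from a few counts per library in 2D. Without 3D_7d replicate 1 the day 7 value was 3.60. Of its exonic bases, 43.6% are shared with IGLC1 and the neighbouring J segment. IGLC1 itself had 0 counts, but 100% of its exonic bases are shared with IGLL5, so that this 0 does not measure its level. How reads in the shared exons were assigned was not tested, and the kappa share of light chain constant counts depends on it.

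The other lambda constant genes stayed under the expression condition. IGLC2 had 2, 4 and 1 counts in 2D, 29, 21 and 9 at day 7 and 228, 46 and 72 at day 14. IGLC3 reached 22 counts in 3D_14d replicate 1, IGLC4 reached 12 and IGLC5 reached 7, all in that library, and IGLC6 had 1 count in all. IGLC7 had 0 counts in every library, which allows up to 3 counts per library. The untested genes with most counts, IGHV4-39 (549), IGLC2 (412) and IGLV3-1 (376), were each higher in every 3D sample than in every 2D sample. They were ranked by counts summed over all libraries, most of them 3D, which favours genes that are high in 3D. The share of such genes among all genes was not computed. IGLV4-60, named after its values were seen, was higher in 2D, with 87, 84 and 122 counts against 2 to 37 counts in the 3D libraries.

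The genes under the expression condition were summed without TMM scaling. Their summed level was 3.50 to 4.41 CPM in 2D, 3.65 to 5.77 at day 7 and 12.1, 5.81 and 13.0 at day 14. Day 7 overlapped 2D, and replicate 2 was the lowest day 14 sample. These sums were not tested and rest on few genes. IGHV4-39 and IGHV4-4 held 284 and 101 of the 711 counts in 3D_14d replicate 3, and IGLC2 and IGLV3-1 held 228 and 141 of the 740 in replicate 1. All 279 genes together took 0.475% ± 0.0351 (SD, n = 3) of the assigned reads in 2D, 2.56% ± 0.275 at day 7 and 3.46% ± 0.826 at day 14. No groups overlapped, and each difference had the smallest p-value possible here (exact permutation test, p = 0.1, adjusted p = 0.21).

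Promoters of immunoglobulin V genes are known for the octamer, a short motif bound by the POU factors that B cells express. Windows of 300 bases, 250 before and 50 after each annotated start, were searched for ATGCAAAT on both strands in GRCh38. The motif was found in 58 of 86 IGHV windows (67.4%), all on the sense strand, and, always on the antisense strand, in 36 of 76 IGKV windows (47.4%) and in 34 of 56 IGLV windows (60.7%). Of all 35116 RefSeq promoters of the same length and placement, 1.77% held it. A match describes letters in a window and not a bound site. Of the 12 tested V genes, 10 held the motif. IGKV4-1, the segment with the highest level, and IGHV1-68 did not, and in IGKV4-1 there was none in the 175 bases between its annotated start and first coding base either. The sites of 5 genes are printed with 10 bases on each side, in capitals for the motif, to compare the 2 subgroups that hold most heavy chain reads with the lambda segment. They lie at chr14:106627776-106627803, chr14:106374189-106374216, chr14:106715218-106715245 and chr14:106277080-106277107 on the minus strand and at chr22:22195682-22195709 on the plus strand.
IGHV4-59: caccacccacATGCAAATcctcacttaa
IGHV4-34: caccacccacATGCAAATcctcacttag
IGHV1-69: cctcatgcatATGCAAATaacctgaggt
IGHV1-24: cctcatgaatATGCAAATgcactgctgt
IGLV6-57: aaagggagaaATTTGCATggagccctac
In IGHV4-59 the motif began 32 bases after the annotated start, whereas in IGHV4-34 it began 61 bases and in IGHV1-69 54 bases before it.

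Of 17 listed transcription factors, 5 rose and 2 fell at day 7 and 6 rose and 0 fell at day 14 against 2D, with medians of 0.20 and 0.19. Among all tested genes 22.2% rose and 21.2% fell at day 7, and 19.0% rose and 17.2% fell at day 14, so that the share of rising factors at day 7 was near the background. SPIB, an ETS factor of B cells, rose by 1.53 at day 7 (SE 0.162, adjusted p = 2.51e-05), and IKZF1, the lymphoid factor Ikaros, rose by 1.03 (SE 0.138, adjusted p = 0.000117). POU2AF1, the coactivator of the octamer factors and named here for that role, had a difference of 0.03 on the log2 scale at day 7 (adjusted p = 0.857) and rose by 0.35 at day 14 (adjusted p = 0.0431).

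Most tested constant and joining segments rose as well. Of 7 tested heavy chain constant genes, 6 rose at day 7 and 6 at day 14, and IGHD, named after its value was seen, was the gene that fell at day 7 (log2 -0.57, adjusted p = 0.0223). IGHG3 and IGHG1, which encode gamma chains, rose by 2.76 (SE 0.167, adjusted p = 1.15e-06) and 2.57 (SE 0.222, adjusted p = 7.23e-06) at day 7. Of 6 tested joining segments, 5 rose at each time point, beside the same background. IGHJ4 and IGKJ3 had the most counts of their loci (3694 and 2685), IGHJ4 only through 3D_14d replicate 3. IGKJ4 and IGKJ5 were close to IGKJ3, with 2618 and 2455 counts. These counts were small beside the 4792610 of IGKV4-1, and which J segment the clone had joined was not tested. In 2D, IGHJ6 had 95, 166 and 162 counts, more than the 69, 125 and 101 of IGHJ4. IGLJ2 led the lambda joining segments with 15. IGKJ3 rose by 1.40 (adjusted p = 0.00177) and IGKJ4 by 1.20 (adjusted p = 0.00203) at day 7. IGKJ1, which was not tested, was instead higher in 2D, with 76, 100 and 68 counts against 2 to 36 in 3D, and the D segment IGHD4-23 had 15, 28 and 49 counts in 2D and 0 in all 6 3D libraries, which allows up to 3 counts in each. Both were named after their values were seen.

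The related gene lists stand beside the same background of 22.2% rising and 21.2% falling genes at day 7 and 19.0% and 17.2% at day 14. Of 13 tested genes for rearrangement and hypermutation, 5 rose and 2 fell at day 7, whereas 2 rose and 7 fell at day 14. XRCC5, a subunit of Ku, rose by 1.61 at day 7 (SE 0.154, adjusted p = 1.34e-05). Of 5 tested receptor partners, 1 rose and 2 fell at day 7, and 3 rose and 1 fell at day 14. JCHAIN, which joins IgM into polymers, rose by 1.91 at day 7 (SE 0.165, adjusted p = 7.49e-06), while MZB1, a chaperone for IgM, fell by 1.90 (SE 0.180, adjusted p = 1.19e-05). Of 25 genes for folding and transport of immunoglobulin in the endoplasmic reticulum, 10 rose and 6 fell at day 7 and 7 rose and 4 fell at day 14. CALR, a lectin chaperone, rose by 1.10 (SE 0.142, adjusted p = 9.13e-05), and LMAN1, a cargo receptor, fell by 1.25 (SE 0.125, adjusted p = 1.76e-05).

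Outside the immunoglobulin genes, the tested genes most like IGKC over the 9 samples were RHBDD2, NDFIP1, TPRG1L, MARCH2 and LTB, with Pearson's r of log2 CPM from 0.990 to 0.992. These correlations describe 3 groups of samples that share culture and extraction, and carry no p-value.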

How the data were processed

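Per the submitters' processing notes, the authors used Trimmomatic 0.39, STAR 2.5.3a (on GRCh38) and featureCounts 1.6.4 on single reads of 100 nt. Libraries came from a low-input SMART-Seq protocol, which does not mark strand, and the treatment of reads with several alignments is not given in the sources used here. The deposited values are raw counts per gene symbol, without normalization.

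Of 51726 genes with a count, 13463 had more than 1 CPM in 3 or more samples and were kept. With edgeR (version 4.0.16, R 4.3.3), TMM factors were computed, 1 model with a mean per group was fitted to all 9 samples, and the quasi-likelihood test was applied to 3 contrasts. Benjamini-Hochberg adjustment covered all kept genes, and an adjusted p of at most 0.05 was called. Single values per sample were compared with exact two-sided permutation tests of 3 samples against 3, adjusted over 21 tests, for which the smallest p is 0.1. Named genes were all kept members, the leading and next V gene of each locus, the lambda constant genes, the leading J segments and, in each list of related genes, the 2 with the smallest p at day 7. One gene that this rule picks is not reported here. Members, lists and tests were chosen with earlier results of these data known. Positions and sequences were read from GRCh38 and GENCODE 44, in which 269 of the 279 members have the coordinates of the GENCODE 31 annotation in the count table, and promoters of other genes from RefSeq.

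Replicate numbers were not used as pairs in the reported fit. Deviations from the group means of same-numbered samples correlated at 0.297, 0.175 and 0.113 between 2D and day 14, each above 0.1, which counts as pairing for that contrast, and at -0.130 to -0.0345 between 2D and day 7. Alternatives were DESeq2 (version 1.42.0) and its size factors, total counts, TMM without immunoglobulin genes, filterByExpr, no filter, only the 6 samples of a contrast, the block, 9 fits without 1 sample and, chosen after seeing the data, the sum of IGHV1-69 and IGHV1-69D and the ratio of IGKC to heavy chain constant genes. The edgeR step was tested on simulated data.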

Additional observations from a re-analysis of the deposited data

Results flagged for a closer look

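Between day 14 and day 7 of 3D culture, 9 genes were called by the edgeR quasi-likelihood test. Both time points were measured against the same 2D samples, so each call also compares the responses to 3D at the 2 time points. The log2 fold change of day 14 against day 7 was 0.66 for IGHV1-24, 2.57 for IGHV1-68, 1.35 for IGHV1-69, 0.97 for IGHV1-69-2, 1.32 for IGHV1-69D, 1.49 for IGHV4-34, 0.40 for IGHV4-59, 2.15 for IGLL5 and 1.35 for IGLV6-57. The value of IGHV4-34 was 0.30 without 3D_14d replicate 3, and those of IGHV1-69 and IGHV1-69D were 0.74 and 0.82 without 3D_14d replicate 1. The call of IGHV4-59 was lost in 12 of the alternative fits, that of IGHV4-34 in 7, that of IGHV1-69-2 in 2 and that of IGHV1-69 in 1. All 9 were higher at day 14, where 14.5% of all tested genes rose. IGHV1-69 and IGHV1-69D share most of their sequence and are not separate observations.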

How the results depend on the processing

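Of 783 alternative values for single genes, 752 kept their direction and side of the threshold, and in the comparisons with 2D no call was lost or gained where the gene was tested. IGHV3-23 was untested without any one 2D sample. From day 7 to day 14, 22 calls were lost and 8 gained. Between 8 and 14 genes rose at day 7, and between 11 and 18 at day 14, against 2D. The number of falling genes was 1 at both time points, but 2 at each with filterByExpr, 3 at day 7 without a filter, and from 0 to 1 with single samples left out. With single samples left out, the difference in the share of IGKV4-1 against 2D lay between -0.00215 and 0.00842 percentage points at day 7, and between -0.00095 and 0.00962 at day 14. The log2 ratio of IGKV4-1 to IGKC ranged from -0.0316 to 0.0128 for day 14 against 2D and from -0.0391 to 0.00525 for day 14 against day 7, and that of IGHV4-59 to the heavy chain constant genes from -0.18 to 0.32 and from -0.0515 to 0.454. IGLV6-57 at day 7 ranged from -0.14, without 3D_7d replicate 1, to 0.49. The cause of these reversals was not tested.

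With the replicate block, 10 genes rose at day 7 and 12 at day 14, as without it. From day 7 to day 14 the block moved the adjusted p of IGHV4-59 above the threshold (log2 0.40, adjusted p = 0.0507, range over alternatives 0.0126 to 0.469) and that of IGHV5-78 below it (log2 0.82, adjusted p = 0.0466, range 0.0224 to 0.169), and it changed no other call. IGHV1-69 and IGHV1-69-2 lost that call without 3D_7d replicate 1 (adjusted p = 0.0504 and 0.0536, ranges up to 0.0504 and 0.0644).

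Of the 188 untested genes with a count, 136 had at most 3 counts in every sample, so that differences were not detectable at this depth for them. Reads from shared stretches could not be assigned to 1 copy of a pair. Such stretches made up 66.1% of the 100-base stretches of IGHV1-69 (shared with IGHV1-69D) and 33.8% of those of IGHV4-59 (shared with IGHV4-61).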
